A study of Bos taurus with 8 samples.

Results

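The genes described here are the SLC25 carriers of the inner mitochondrial membrane and the TIMM and TOMM genes of the protein import machinery, as measured in bovine blastocysts. Members were taken by symbol, as every gene on the array whose name begins with SLC25A, or with TIMM or TOMM followed by a digit. These families were chosen with earlier results of these data known. The brightest probe on average stood for each gene. This gave 58 members out of 15229 genes with a symbol, of which 37 were carriers and 21 were import genes. Inner cell mass (ICM) and trophectoderm (TE), the first 2 lineages of the embryo, were separated by microsurgery and immunosurgery from expanded blastocysts that had developed in superovulated, inseminated Holstein cows and were flushed at 7.5 days post insemination. RNA of 4 pools of ICM and 4 pools of TE was amplified, labelled and hybridised as 4 pool pairs on 8 two-color arrays, once with ICM in Cy5 and TE in Cy3 and once with the dyes exchanged. Both RNAs thus come from the same stage, each pool mixes several embryos, and ICM at this stage holds the precursors of epiblast and hypoblast together.

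The mitochondrial inner membrane is impermeable to most solutes, and SLC25 proteins are the carriers that exchange nucleotides, phosphate, carboxylates, amino acids, cofactors and metals across it. Nearly all mitochondrial proteins, these carriers included, are made in the cytosol and enter through the TOM complex of the outer membrane. Precursors with a cleavable presequence then pass the TIM23 complex toward the matrix, whereas carriers are escorted by the small TIM chaperones of the intermembrane space to the TIM22 complex, which inserts them into the inner membrane. In the mouse blastocyst, the fluid-pumping epithelium of the TE is known to consume more oxygen and make more ATP than the ICM.

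Between 48.2% and 65.6% of the probes lay above the mean plus 2 SD of 153 negative control spots, per channel, over the 16 channels of the 8 arrays. Channels were assigned to tissues by the labelled dyes, and markers of the lineages ran against this assignment. Of 12 trophoblast markers 11 were higher in RNA labelled ICM, with a summed level of 162718 to 171752 in the pools labelled ICM and 84776 to 97616 in those labelled TE. Of 9 epiblast markers 8 were lower there, with summed levels of 17922 to 24590 and 55326 to 73904. Of 5 measured hypoblast markers 3 were lower, and of 6 blood markers 1 was lower. All signed values below follow the labels, which give a direction opposite to that of the study, and the text therefore speaks of RNA labelled ICM and RNA labelled TE. NANOG, a factor of the pluripotent epiblast, had a log2 ratio of -3.50, and GATA2, a trophoblast factor, had one of 1.8. The study's RT-qPCR, which involves no array channel, places both genes on the other side. In such bulk RNA, fewer cells of a type and less RNA per cell cannot be told apart. The pools were separate sets of blastocysts, but the sources used here do not say which cows contributed to which pool. The p-values therefore reflect the spread over 4 pool pairs, technical spread included, and whether they reflect the spread between cows is not known.

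Carriers and import genes were compared for the direction and the number of their differences. Of the 37 carriers, 8 had more signal in the RNA labelled ICM and none had less at an adjusted p at or under 0.05 (limma, Benjamini-Hochberg adjustment over all probes), and 29 were not called. In that direction 21.6% of the carriers were called, beside 8.69% of all genes. The other direction held 0% of the carriers and 6.85% of all genes. If the channels were read the other way round, the same 8 carriers would be higher in TE and every signed value would change its sign, with sizes and p-values as given. Among the 21 import genes none was higher, 1 was lower (4.76%) and 20 were not called. The stricter adjusted p of 0.01 was passed by 3 carriers, all higher, beside 3.35% of all genes, and by 1 import gene, lower, beside 1.92% of all genes. At an unadjusted p under 0.05 there were 14 carriers (37.8%) and 7 import genes (33.3%), both near the 30.0% of all genes.

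The groups also differed in where their ratios lay. Of the carriers 25 had a positive and 12 a negative log2 ratio of labelled ICM over labelled TE, with a median of 0.03 and a range of -0.25 to 1.52. Of the import genes 8 were positive and 13 negative, with a median of -0.04 and a range of -0.41 to 0.20. Over all genes the median was 0.01 and 55.5% were positive. The carrier median minus the import median was 0.06, and in pool pairs 1 to 4 it was 0.07, 0.10, 0.03 and 0.13. The difference was thus small in every pair and had the same sign in all 4, and it was not given a test because the members were chosen with earlier results known.

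**Figure D1:**
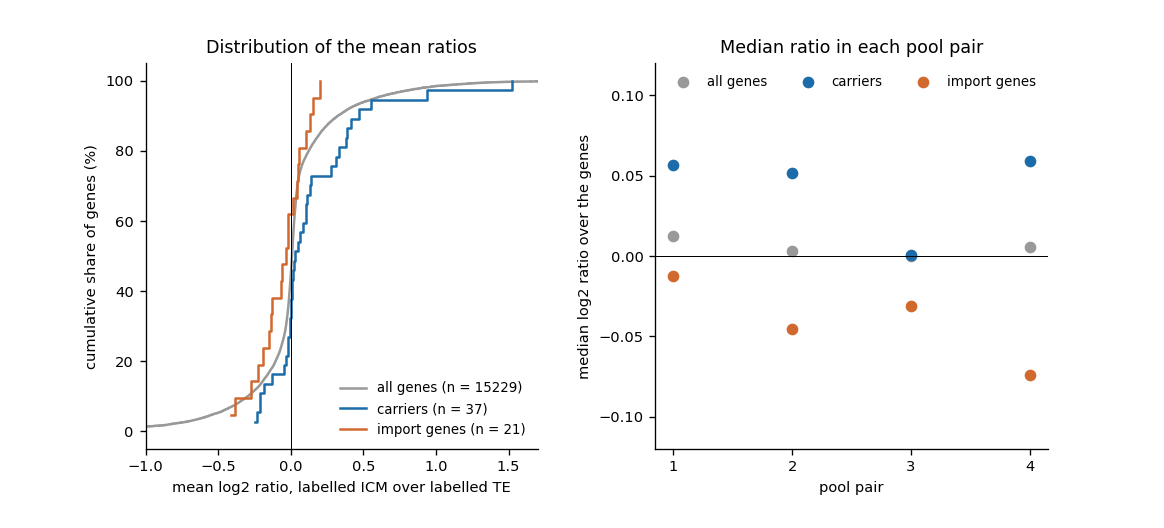
The left panel plots the cumulative share of genes (%) against the mean log2 ratio of labelled ICM over labelled TE for 37 carriers, 21 import genes and 15229 genes, and the right panel plots the median log2 ratio of each group in the 4 pool pairs. The carrier curve runs to the right of the import curve up to 1.52, and the carrier median lies above the import median in every pair.

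The members differed in signal. All 21 import genes and 32 carriers were above the negative control limit on at least 8 of the 16 channels. Among genes that met this criterion, 25% of the carriers and 12.7% of all genes were higher, and 0% of the carriers, 4.76% of the import genes and 10.0% of all genes were lower. The median difference between carriers and import genes was 0.11 there, with 0.10, 0.09, 0.07 and 0.15 in the 4 pairs. SLC25A46, an outer membrane member of the family, was above the limit on no channel and is given no fold. SLC25A2, SLC25A41 and SLC25A42 were above it on at most 2 channels and are likewise given none.

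**Figure D2:**
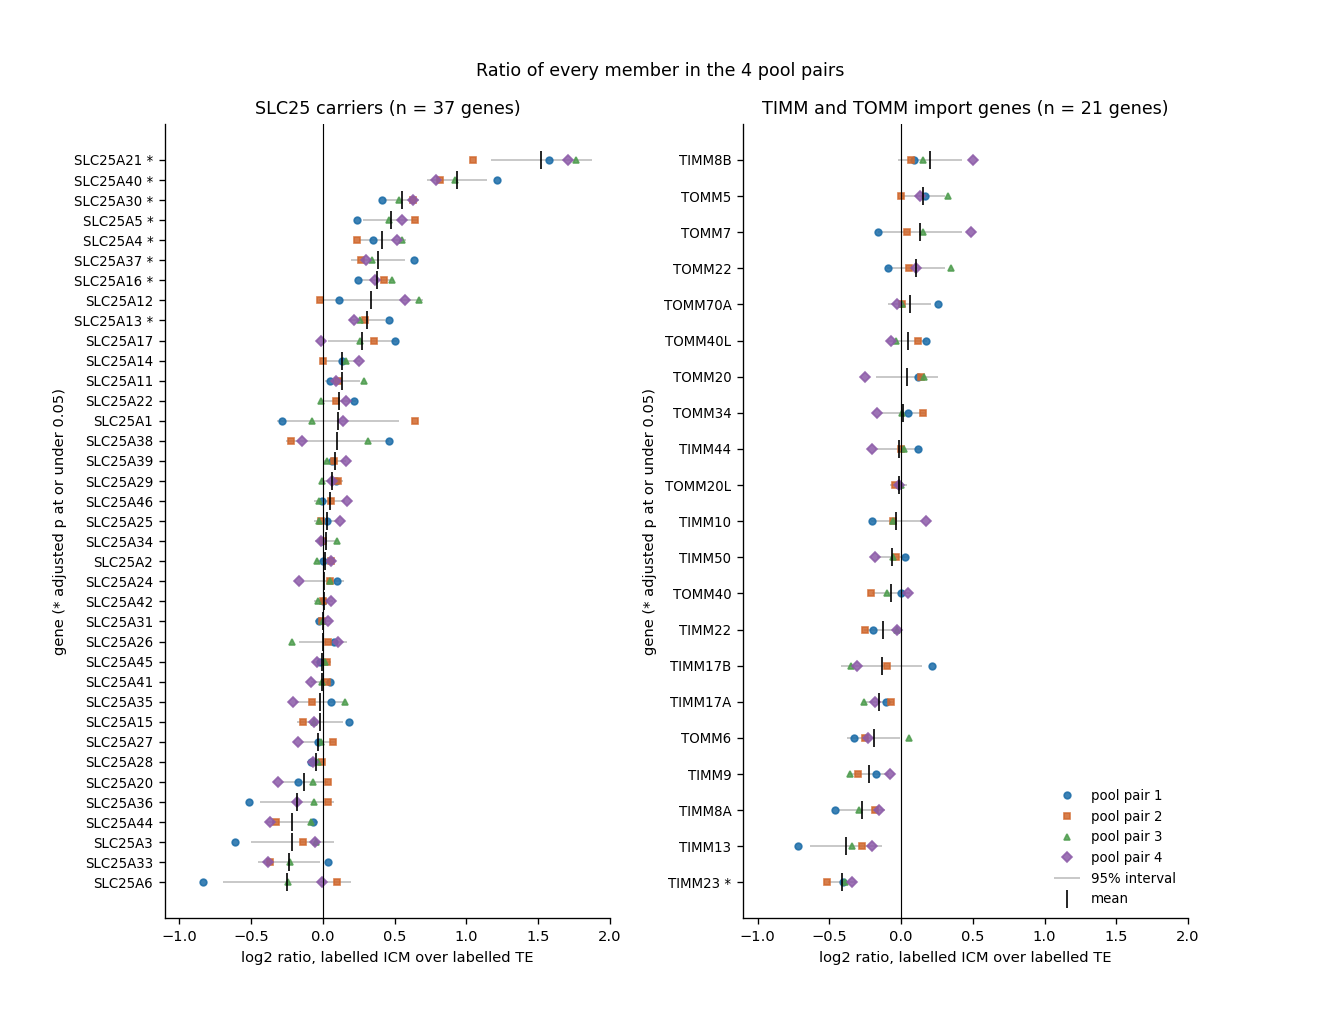
Each row is a gene, each symbol the log2 ratio of labelled ICM over labelled TE in 1 of 4 pool pairs (mean of 2 dye-swapped arrays), the tick the mean and the line its 95% interval from limma. An asterisk marks an adjusted p at or under 0.05, which 8 carriers reached on the positive side and TIMM23 reached on the negative side.

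SLC25A21, the carrier of oxodicarboxylates that links lysine and tryptophan breakdown in the cytosol to the matrix, showed the largest ratio of all members. Its normalized log2 intensity was 10.04, 9.78, 10.34 and 9.59 in the pools labelled ICM and 8.47, 8.74, 8.58 and 7.88 in the pools labelled TE. The lowest pool labelled ICM lay above the highest pool labelled TE. The log2 ratio was 1.52 (SE 0.13, n = 4 pool pairs, adjusted p = 0.00671 from limma), a 2.87-fold difference, and it was positive on 8 of 8 arrays. The other 2 carboxylate carriers were positive without being called, SLC25A11, which exchanges 2-oxoglutarate for malate, at 0.13 (adjusted p = 0.179) and the citrate carrier SLC25A1 at 0.11 (adjusted p = 0.784). SLC25A1 ranged from -0.29 to 0.64 over the pool pairs, a spread wider than its mean.

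Cofactor and metal carriers held the most calls of any class, with 3 of 8 higher (37.5%, beside 8.69% of all genes). Of the 8, 7 were positive, beside 55.5% of all genes. The positive ones include SLC25A26 at 0.00 and SLC25A42, whose probe was above the negative control limit on only 1 channel per label. SLC25A40, which together with its relative SLC25A39 brings glutathione into mitochondria, measured 11.38, 11.47, 11.47 and 11.13 in the pools labelled ICM and 10.17, 10.65, 10.55 and 10.34 in those labelled TE. The labels did not overlap, and the log2 ratio was 0.94 (SE 0.08, n = 4, adjusted p = 0.00635), or 1.91-fold. SLC25A39 had a log2 ratio of 0.08 (95% interval 0.01 to 0.16, adjusted p = 0.194), so its upper bound lay under the lower bound of 0.72 for SLC25A40, although the difference between the 2 genes was not tested. The SLC25A39 probe was dimmer, with a mean log2 intensity of 8.45 beside 10.89 for SLC25A40. The background correction used here shrinks the ratios of dim probes, so the 2 intervals are not directly comparable.

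SLC25A37, the iron importer mitoferrin-1, measured 9.53, 9.74, 9.61 and 9.80 in the pools labelled ICM and 8.89, 9.48, 9.27 and 9.50 in those labelled TE. Here too the labels were separate, by a narrow margin, with a log2 ratio of 0.39 (SE 0.07, adjusted p = 0.0383). SLC25A28, the other iron importer, had a log2 ratio of -0.05 (95% interval -0.11 to 0.02, adjusted p = 0.373). Its probe was dimmer too, at a mean log2 intensity of 8.19 beside 9.48 for SLC25A37, so the shrinkage of dim ratios bears on this contrast as well. SLC25A16, a carrier linked to mitochondrial coenzyme A, measured 9.02, 9.0, 9.40 and 8.68 in the pools labelled ICM and 8.78, 8.57, 8.92 and 8.32 in those labelled TE. The ranges overlapped between pools, while within every pair the RNA labelled ICM was higher, by 0.25, 0.42, 0.48 and 0.36, and the mean ratio was 0.38 (SE 0.04, adjusted p = 0.0132). SLC25A17, which serves peroxisomes instead of mitochondria, had a ratio of 0.28 (adjusted p = 0.162) with pair values from -0.02 to 0.50.

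Among the nucleotide and phosphate carriers are those that supply ATP synthase with ADP and phosphate and export ATP. Of the 10 genes in the whole class 2 were higher (20%, beside 8.69% of all genes), both of them adenine nucleotide translocases. SLC25A5 measured 13.90, 13.60, 14.0 and 14.23 in the pools labelled ICM and 13.66, 12.96, 13.54 and 13.68 in those labelled TE. Pool pair 2 was lower than the others in both RNAs, so the ranges overlapped, but each pair was positive, at 0.24, 0.64, 0.46 and 0.55, with a mean of 0.47 (SE 0.07, adjusted p = 0.0241). SLC25A4 measured 13.29, 13.25, 13.35 and 13.46 in the pools labelled ICM and 12.94, 13.01, 12.79 and 12.94 in those labelled TE. Its labels were separate, with a log2 ratio of 0.42 (SE 0.06, adjusted p = 0.0234).

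The other translocases did not share this direction. SLC25A6 measured 10.02, 10.93, 10.41 and 10.14 in the pools labelled ICM and 10.86, 10.84, 10.65 and 10.14 in those labelled TE, with a log2 ratio of -0.25 (95% interval -0.69 to 0.20, adjusted p = 0.520). Pair 1 stood at -0.84 and pair 2 at 0.10, so its direction was not settled. SLC25A31, the translocase known from the germ line, was above the negative control limit on 12 of 16 channels and had a log2 ratio of 0.00 (95% interval -0.06 to 0.06). SLC25A3, the phosphate carrier that works beside the translocases, measured 13.23, 13.42, 13.36 and 13.25 in the pools labelled ICM and 13.84, 13.56, 13.40 and 13.30 in those labelled TE. Its ratio was -0.21 (95% interval -0.50 to 0.08, adjusted p = 0.378), with -0.61 in pair 1 and between -0.14 and -0.05 in the others. These translocases are close in sequence, and how far each probe binds the transcripts of the others was not tested.

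SLC25A30, a relative of the uncoupling proteins, was higher with a log2 ratio of 0.55 (SE 0.05, adjusted p = 0.00606), from 9.44, 9.68, 9.43 and 9.15 in the pools labelled ICM against 9.03, 9.05, 8.90 and 8.52 in those labelled TE. All 4 pools labelled ICM lay above all 4 labelled TE. SLC25A14, another relative of the uncoupling proteins, was separated in the same way by a far smaller margin, with a ratio of 0.14 (adjusted p = 0.170). The carnitine-acylcarnitine carrier SLC25A20, which brings fatty acids in for oxidation, had a ratio of -0.13 (95% interval -0.30 to 0.04, adjusted p = 0.353). SLC25A30, SLC25A14, SLC25A21, SLC25A40, SLC25A4 and SLC25A37 were the 6 carriers whose pool levels did not overlap between labels, all in 1 direction, beside 9.15% of all genes higher and 8.70% lower.

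Amino acid carriers gave 1 call out of 8 (12.5%, beside 8.69% of all genes called higher). SLC25A13, an aspartate-glutamate carrier of the malate-aspartate shuttle, measured 11.23, 11.37, 11.74 and 11.53 in the pools labelled ICM and 10.77, 11.07, 11.48 and 11.31 in those labelled TE. The ranges overlapped, and the pair ratios of 0.46, 0.30, 0.26 and 0.22 gave a mean of 0.31 (SE 0.05, adjusted p = 0.0240). This call rested on 1 dye orientation. With ICM labelled in Cy3 the 4 arrays gave 0.65, 0.77, 0.70 and 0.50, and with ICM labelled in Cy5 they gave 0.27, -0.17, -0.19 and -0.06, so that only 5 of 8 arrays were positive. Its relative SLC25A12 had a similar mean of 0.33 but pair values of 0.12, -0.02, 0.67 and 0.57 (adjusted p = 0.259). SLC25A44, which carries branched-chain amino acids, had a ratio of -0.21 (95% interval -0.39 to -0.04, adjusted p = 0.146).

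**Figure D3:**
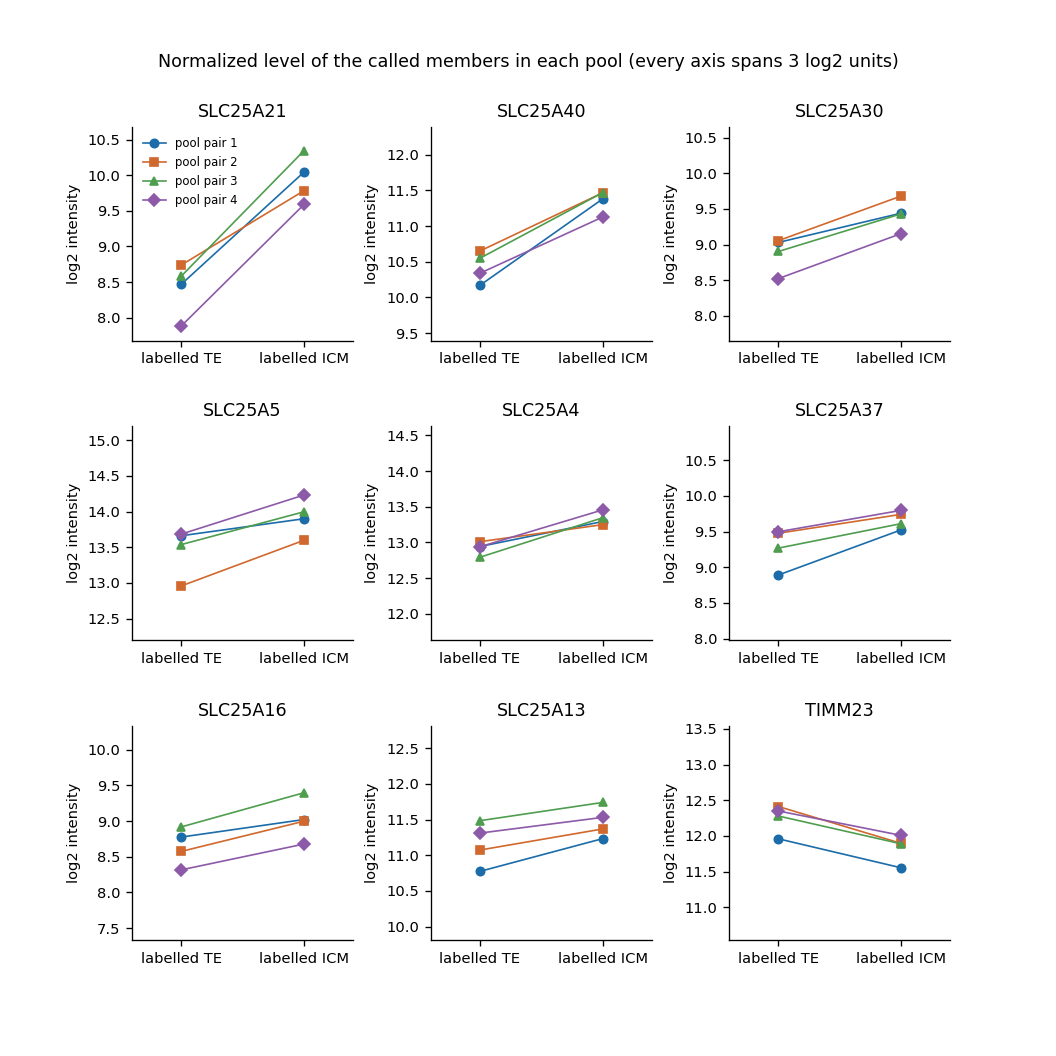
Normalized log2 intensity of the 9 called members in the 4 pools labelled TE and the 4 labelled ICM, with lines joining the 2 pools of a pair and every vertical axis spanning 3 log2 units from its own start. Every line of the 8 carriers rises toward the RNA labelled ICM and all 4 lines of TIMM23 fall.

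The import genes had 1 call, in the channel of the presequence pathway. TIMM23, the pore-forming subunit of the TIM23 complex, measured 11.55, 11.90, 11.89 and 12.01 in the pools labelled ICM and 11.96, 12.41, 12.28 and 12.35 in those labelled TE. One value labelled TE, in pair 1, lay within the range of the pools labelled ICM, but each pair was lower, and the log2 ratio was -0.41 (SE 0.04, adjusted p = 0.00639), or 1.33-fold, with 0 of 8 arrays positive. All 5 measured genes of this complex had a negative mean ratio, beside 6782 of all 15229 genes. TIMM17A, its partner in the channel, had -0.15 (adjusted p = 0.0889), the related TIMM17B -0.14 (adjusted p = 0.583), the receptor TIMM50 -0.06 (adjusted p = 0.513) and TIMM44, which tethers the import motor, -0.02 (adjusted p = 0.913). TIMM17B ranged from -0.35 to 0.22 over the pairs, so among these only TIMM23 and TIMM17A were negative in every pair.

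The small TIM chaperones, which guide carriers to the inner membrane, gave no call. Of the 5, 4 were negative, beside 6782 of all 15229 genes. TIMM13 measured 9.29, 9.76, 9.45 and 9.44 in the pools labelled ICM and 10.01, 10.03, 9.79 and 9.64 in those labelled TE, with a ratio of -0.38 (95% interval -0.63 to -0.13, adjusted p = 0.0847) and 0 of 8 arrays positive. TIMM8A had -0.27 (adjusted p = 0.0613), TIMM9 -0.23 (adjusted p = 0.0787) and TIMM10 -0.04 (adjusted p = 0.821). TIMM13, TIMM8A and TIMM9 each came close to the threshold with negative values in all 4 pairs. TIMM8B alone was positive, at 0.20 (adjusted p = 0.258). TIMM22, the channel that inserts the carriers, had a ratio of -0.13 (95% interval -0.26 to 0.01, adjusted p = 0.241).

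None of the 9 genes of the TOM complex was called, and 6 had a positive ratio, beside 55.5% of all genes. The receptors TOMM20, TOMM22 and TOMM70A had 0.04 (95% interval -0.17 to 0.26), 0.10 (-0.10 to 0.31) and 0.06 (-0.09 to 0.21). These intervals leave room for a difference of up to 0.31 in the RNA labelled ICM. The channel TOMM40 had -0.07 (95% interval -0.20 to 0.07), with its probe above the negative control limit on 9 of 16 channels. Among the small subunits TOMM5 had 0.16, TOMM7 0.13 and TOMM6 -0.19, with adjusted p of 0.207, 0.614 and 0.209. Uncalled members other than the translocases, the phosphate carrier, the TOM receptors and channel, TIMM22 and the TIM23 complex were chosen for mention after their values were seen.

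Some members differed more between dye orientations than between pool pairs. SLC25A22, a glutamate carrier, averaged -0.33 on the 4 arrays with ICM in Cy5 and 0.56 on those with ICM in Cy3. SLC25A35, of unassigned substrate, averaged 0.37 and -0.41. For both the mean of the orientations was near 0, at 0.11 and -0.02. The called carriers apart from SLC25A13 were positive in both orientations, SLC25A21 with 1.6 and 1.44, SLC25A40 with 0.78 and 1.09 and SLC25A5 with 0.27 and 0.68, and TIMM23 was negative in both, with -0.37 and -0.46. TIMM17A had -0.35 and 0.04. The 4 arrays of an orientation lie on 1 slide, so slide and dye cannot be told apart.

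**Figure D4:**
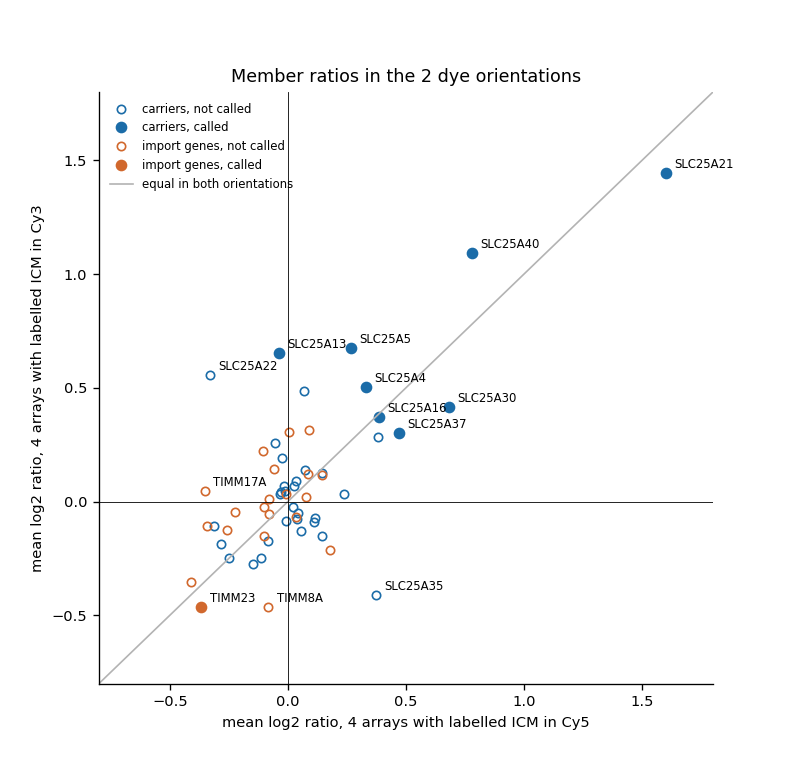
Each point is a member, with its mean log2 ratio of labelled ICM over labelled TE with ICM in Cy5 (4 arrays) on the horizontal axis and with ICM in Cy3 (4 arrays) on the vertical axis, and the grey line marks equal values. SLC25A21 lies near the line at 1.6 and 1.44, whereas SLC25A13, SLC25A22 and SLC25A35 lie far from it.

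Different probes of a gene bore on some of these calls. The 58 members were covered by 97 probes, and 25 members had more than 1. For TIMM23 both probes were called, at -0.41 and -0.33. For SLC25A5 the second probe gave 0.49 without passing (adjusted p = 0.0749). For SLC25A37 the second probe, also above the negative control limit on all channels, gave -0.07, against 0.39 at the brighter probe. SLC25A21 was called at 1 of 3 probes, the others at 0.23 and 0.08. The probe at 0.23 was above the limit on 6 channels labelled ICM and 2 labelled TE, and the probe at 0.08 on no channel. SLC25A40 and SLC25A16 were called at 1 of 2 probes. Their second probes stood at 0.00 and were above the limit on at most 2 channels. All 5 probes of TIMM17A were negative, between -0.23 and -0.15, and 2 of them passed, with adjusted p of 0.0194 and 0.0144. No member had probes called in both directions.

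The calls differed in how they stood up to the loss of a pool pair. SLC25A21, SLC25A40, SLC25A30 and TIMM23 remained called whichever pair was left out. SLC25A5, SLC25A37, SLC25A16 and SLC25A13 were no longer called without pair 2, 3 or 4, at adjusted p between 0.0540 and 0.125, and SLC25A4 without pair 1, 3 or 4, at 0.0545, 0.0812 and 0.10. The number of carriers called higher was 7, 4, 3 and 3 without pairs 1, 2, 3 and 4, and 3 pool pairs leave fewer residual degrees of freedom than 4. With median centring in place of loess only SLC25A21 was called, at an overall share of 0.441% of probes higher and 0.320% lower.

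Genes of neighbouring functions were counted as well. Of 20 measured genes for other steps of protein import, none was higher and 1 was lower (5%, beside 6.85% of all genes), with a median of -0.08 and 6 positive. The lower gene was GRPEL1, the nucleotide exchange factor of the matrix import motor, at -0.31 (SE 0.05, adjusted p = 0.0309), with pair values of -0.31, -0.46, -0.30 and -0.17. Its pool levels did not overlap between labels, and it was no longer called without pair 1, 2 or 3, at adjusted p of 0.0859, 0.0733 and 0.116. Of 20 measured genes for other transport across the mitochondrial membranes, 2 were higher (10%, beside 8.69% of all genes) and none was lower, with a median of 0.04 and 15 positive. Both shares of called genes were near those over all genes, of which 55.5% had a positive ratio. The 2 called genes of the transport list were VDAC1, the main outer membrane pore for metabolites, at 0.35 (SE 0.05, adjusted p = 0.0179), and SFXN4, a sideroflexin of the inner membrane, at 0.18 (SE 0.02, adjusted p = 0.0147). VDAC1 was not called without pair 2, 3 or 4 (adjusted p 0.0700, 0.0648 and 0.0713) and SFXN4 not without pair 2 or 3 (0.0800 and 0.0795). All 3 groups of import and transport genes apart from the SLC25 carriers thus had medians between -0.08 and 0.04, beside 0.01 over all genes. The carrier median of 0.03 lay within the same range. The median log2 ratio along the same labels was 0.84 over the trophoblast markers and -1.24 over the epiblast markers, and the part of lineage composition in the values of the members was not tested.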

How the data were processed

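Two-color arrays of 4 ICM and TE pool pairs, each in both dye orientations, were analysed. Raw spot intensity and local background intensity per channel were deposited by the authors for every array, as scanned. A second deposited table holds normalized log2 ratios, whose scale, centring and direction are not stated. Its columns correlated with log2 of Cy5 over Cy3 across probes (r from 0.730 to 0.856), had medians of -0.0257 to 0.00451, and served only as an alternative. The methods name background subtraction, loess and quantile normalization, and the submitters' processing notes name limma.

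Here intensities of 45220 spots (43794 probes, 1426 controls) were corrected by normexp (offset 50) in place of subtraction, which leaves values without a log, then normalized by loess with controls at weight 0 and by Aquantile. Spots marked as ignored, at most 47 an array, were left out. Each pair's 2 dye-swapped ratios were averaged, and the mean of 4 pairs was compared with 0 in limma 3.58.1 (R 4.3.3). Calls needed an adjusted p of 0.05 or less over all probes. Intervals are 95% intervals of limma's moderated fit. The offset shrinks the ratios of dim probes, and the number of arrays limits the precision. The platform annotation gives 21790 probes 1 symbol and leaves 22004 unnamed. Genes of the further lists missing by symbol were looked up by synonym in an ARS-UCD2.0 gene table. In the transport list VDAC3 was counted through a probe annotated VDAC1P5, with a log2 ratio of -0.17, and whether that probe measures VDAC3 was not tested.

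Deviations from the orientation means correlated across probes between the arrays of 1 replicate number (r = 0.839, 0.656, 0.553 and 0.555), and between different numbers with r of -0.548 to 0.158, so the numbers pair the arrays. Once turned by label, arrays correlated across probes with r of 0.499 to 0.822.

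Members and lists were chosen with earlier results of these data known. Named were all called members, 15 genes of core complexes and translocases whatever their p, and called genes of the further lists. Others were named after their values were seen. Alternatives changed the background correction, normalization, dye orientation, replicate block, probe filter, probe choice, threshold and pool pairs. Median pixel intensity was added after seeing the data. The steps were tested on simulated data. That simulation planted changes in bright probes only, larger than those of all called members but SLC25A21, so smaller differences went untested.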

Additional observations from a re-analysis of the deposited data

Results flagged for a closer look

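Values of 27 results were examined for a pool pair far from the other 3, measured by its gap to the nearest pair over the whole range (Dixon's test), and 5 of them stood apart. Chance alone flags about 1 in 20 such groups. For SLC25A3, the phosphate carrier, pool pair 1 lay at a log2 ratio of -0.61, below the others. TOMM70A, the outer membrane receptor for carrier precursors, had pair 1 at 0.26, above the others, and VDAC1 likewise had pair 1 at 0.52. For TOMM20, the receptor for presequences, pair 4 lay at -0.25 while the others were positive. The median over the carriers was 0.000846 in pair 3, lower than in the other pairs, which ranged from 0.05 to 0.06.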

How the results depend on the processing

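The 9 called members were recomputed under 17 alternatives, which gave 153 values. Of these 115 kept the direction and the call, 37 kept the direction but lost the call and 1 reversed. SLC25A21 kept its call in all 17, SLC25A40 and TIMM23 in 16 each and SLC25A30 in 15. These tallies include 1 alternative that did not test the calls. Without between-array normalization each called member had the same ratio and adjusted p as in the main setting. For SLC25A21 these were 1.521 and 0.00671 (limma). The numbers of called members depended more on the setting than their directions, which were fixed in advance in some settings. For SLC25A2, SLC25A41, SLC25A42 and SLC25A46, whose probes were above the negative control limit on few or no channels, a difference was not detectable. The cause of each change below was not tested, except where fewer pools, fewer probes or a stricter threshold make it by construction.

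Carriers called higher numbered 1 with median centring, 3 at an adjusted p of 0.01, and 3 to 7 with a pair left out, against 8. They numbered 6 with the deposited log2 ratios and with median pixel intensity, both without SLC25A4 and SLC25A13. The mean of all probes gave 7, without SLC25A37 at 0.103 (adjusted p = 0.149), and the replicate block also gave 7. There were 9 without background correction, with the block and a dye term, and with ICM in Cy5 only. The first added SLC25A29 and the second SLC25A17. With ICM in Cy5 only, the dim carriers SLC25A24 and SLC25A35 and also SLC25A11 were added, and SLC25A5 and SLC25A13 were lost. Carriers called lower numbered 2 with the 8 arrays fitted under a replicate block (SLC25A33 and SLC25A44, correlation 0.0356), and 0 to 1 with a pair left out. With that block SLC25A13 was not called (adjusted p = 0.172), and it was called when a dye term was added (0.0269, correlation 0.437). Import genes called lower, 1 in the report, numbered 0 with median centring, 3 with the deposited log2 ratios, 3 with the replicate block, 5 with the replicate block and a dye term, 4 with ICM in Cy5 only, 2 with ICM in Cy3 only, 3 with a filter on dim probes, 2 with the mean of all probes, 2 with median pixel intensity, and 1 to 2 with a pair left out. With ICM in Cy3 only 1 import gene, TOMM5, was called higher.

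The carrier median was 0.102 with background subtraction, 0.0635 with median centring, 0.111 with the deposited ratios, 0.0738 with the dim filter and 0.105 with median pixel intensity, against 0.03. It was also 0.0474 without background correction, 0.0462 with ICM in Cy3 only and 0.0251 to 0.045 with a pair left out, the highest without pair 3 (0.045) and without pair 4 (0.0448). The import median was -4.415e-05 with median centring, -0.109 with the deposited ratios, -0.0812 with ICM in Cy5 only, -0.122 with median pixel intensity and -0.062 to -0.020 with a pair left out. Their difference was 0.16 with subtraction, 0.11 without background correction, 0.22 with the deposited ratios, 0.12 with ICM in Cy5 only, 0.11 with the dim filter and 0.23 with median pixel intensity, and thus positive in each.

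Ratios near 0 changed sign. SLC25A31 turned to -0.0126 with subtraction, -0.00429 without background correction, -0.0319 with ICM in Cy5 only and -0.0178 with the mean of all probes, and ranged from -0.0109 to 0.00894 with a pair left out. TIMM44 turned to 0.0492 with subtraction, 0.0159 with median centring and 0.179 with ICM in Cy5 only, and ranged from -0.062 to 0.0461 with a pair left out. TOMM20 turned to -0.0364 with the deposited ratios and -0.0606 with ICM in Cy5 only. TOMM70A turned to -0.104 with ICM in Cy5 only and ranged from -0.00678 to 0.089 with a pair left out. With 1 orientation, SLC25A13 was -0.0379 with ICM in Cy5 and TIMM17A 0.045 with ICM in Cy3.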
